A study of Drosophila melanogaster with 6 samples.

Results

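The 6 libraries of the study, each from whole Drosophila melanogaster larvae of the 3rd instar on day 4 after egg laying, fell into 2 sets by their content of testis RNA and of the male RNAs roX1 and roX2. Control and C4 held this RNA (2 libraries) and C1, C2, C3 and C5 held little of it (4 libraries). The split was read from the counts and not from the labels, which give no sex for any library. Control larvae carried Tublin Gal4 over S-T. C4 larvae carried Tublin Gal4 with UAS-C4, and the other 4 genotypes carried Tublin Gal4 with UAS-C1, UAS-C2, UAS-C3 or UAS-C5. Each UAS insert is a single copy of a gene of the newt Notophthalmus viridescens, placed by phiC31 integrase, and Gal4 under the tubulin promoter is a driver active in most tissues. Control and C4 therefore shared no genotype that the other 4 lacked, and all 6 carried the driver. Each genotype had 1 library, and the sources used here do not say how many larvae were pooled or whether they were sexed.

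In flies the testis runs one of the most specialised transcription programmes of any tissue. In primary spermatocytes the testis meiotic arrest complex (tMAC) and testis forms of the TFIID subunits (tTAFs) switch on large sets of genes that are hardly used elsewhere, among them testis copies of housekeeping proteins, sperm tail parts and the proteins that repack sperm DNA. By the 3rd larval instar the male gonad already holds many spermatocytes, whereas the ovary is small and has no egg chambers. Male somatic cells are marked by roX1 and roX2, noncoding RNAs of the complex that raises the output of the single male X, and female cells by the female splice forms of Sxl, tra and dsx.

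Libraries held 75131812 (C2) to 86975388 (C1) counts. Levels are given as counts per 1000000 counts (CPM) after scaling for composition, and a gene was measured when its mean over the 6 libraries was at least 1 CPM, which left 11599 genes. A measured gene was called higher when the lower of Control and C4 was at least 2 times the highest of C1, C2, C3 and C5, and lower when the higher of Control and C4 was at most 1/2 of the lowest of the 4. A library with fewer than 3 counts entered this rule with 3 counts. The libraries were grouped by testis and roX RNA, so the calls describe the split and are not evidence for it. No test or p-value is given for any difference across it, because the groups were chosen on these values and each genotype is a single library. In whole larvae, fewer cells of a type and less RNA per cell cannot be told apart.

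By this rule 1875 genes (16.2% of the 11599 measured) were higher in Control and C4, and 32 (0.276%) were lower. Since the rule used this contrast, nothing further is read from either share. Without the 2-fold limit, the lowest of Control and C4 lay above the highest of the other 4 for 3117 genes (26.9%), and their highest lay below the lowest of the other 4 for 2155 (18.6%). The higher genes differed by large factors. The gap was at least 10-fold for 1555 genes, at least 100-fold for 861 and at least 1000-fold for 66, and it was under 4-fold for 180. Just above the 2-fold limit, up to 0.1 on the log2 scale, lay 19 genes, and 39 lay as close below it. Of the 1875 genes, 1570 were under 1 CPM in all 4 libraries without testis RNA. Most of them were thus measured only through Control and C4, which strongly favoured the call. Among the 9324 genes with at least 1 CPM in every library, 217 were higher and 26 lower.

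**Figure D1:**
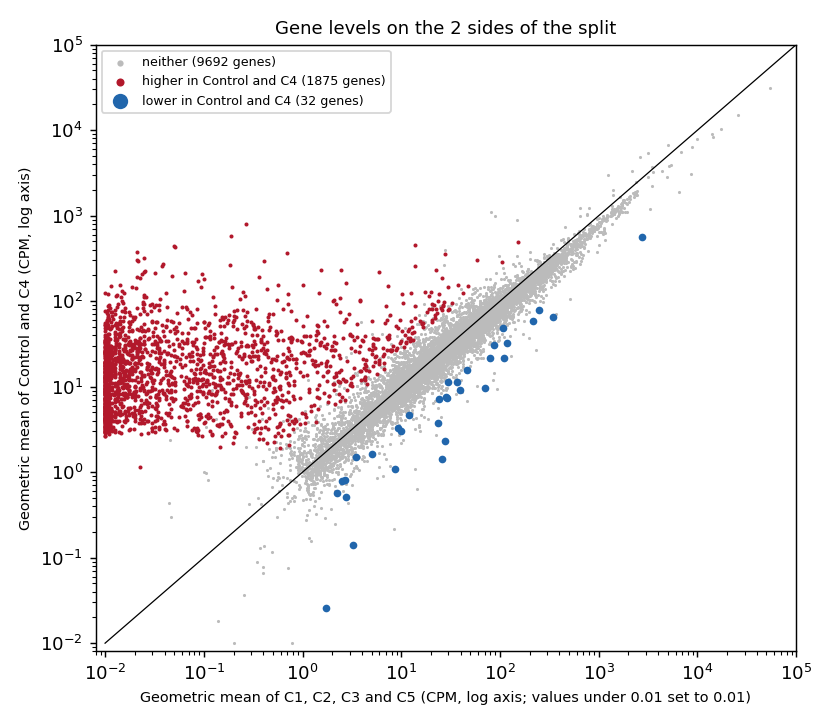
Level of each of the 11599 measured genes, as the geometric mean of Control and C4 (vertical, CPM, log axis) against that of C1, C2, C3 and C5 (horizontal, CPM, log axis, values under 0.01 CPM drawn at 0.01), with the line of equality. The 1875 higher genes (red) spread far to the left, many at the edge of detection in the 4 libraries, while the 32 lower genes (blue) lie close to the cloud of the other 9692 genes (grey).

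The 1875 genes held 4.35% of the counts of Control (exact 95% binomial interval 4.34 to 4.35) and 9.11% of those of C4 (9.11 to 9.12). Their shares in C1, C2, C3 and C5 were 0.226%, 0.208%, 0.238% and 0.202%. These intervals, like all others here, cover counting error only. For 699 of the genes the mean of the 4 libraries was at most 0.1% of the mean of Control and C4. Together these 699 had 1615010 counts in Control and 3449825 in C4, but only 535, 476, 631 and 588 in C1, C2, C3 and C5. After scaling, that is 0.0368% to 0.0474% of the Control level in the 4 libraries and 199% in C4. For these 699 genes, chosen by their low mean in the 4 libraries, the summed traces there were thus close to each other. Genes of the Y chromosome gave the same picture, with 1895 counts in Control, 3808 in C4 and 0 in each of the other 4. At least 3 counts were found for 27 Y genes in Control and for 26 in C4.

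Testis RNA and the roX genes defined the split, so their contrast across it is no result. The label matched roX1 only in part. roX2 (X, 11579065 to 11580432) stood at 7.34 CPM in Control and 16.8 in C4, and 3 counts or fewer were found in each of the other 4 libraries. roX1 (X, 3857230 to 3862697) stood at 208 CPM in Control and 323 in C4, but levels of 11.9, 16.2, 14.4 and 13.2 CPM were also found for C1, C2, C3 and C5. Their mean was 5.25% of the mean of Control and C4, so roX1 was reduced there rather than near absent.

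The other parts of the dosage compensation complex were present in all 6 libraries. Of 8 genes listed for the complex, only the roX genes were called. msl-2, the subunit whose translation is blocked in females, stood at 26.9 CPM in Control and 33.8 in C4, above the 16.3 to 17.6 of the other 4. msl-3, the chromodomain subunit, stood at 18.1 and 24.1 CPM against 12.2 to 15.2, and mof, the histone acetyltransferase, at 15.9 and 17.8 against 10.1 to 13.4. These 3 did not overlap between the sets but stayed under 2-fold, and 26.9% of all measured genes likewise lay higher without overlap. The helicase gene mle (79.4 and 92.9 CPM against 69.6 to 80.6), msl-1, the scaffold subunit (34.8 and 32.6 against 32.5 to 42.7), and Clamp, whose protein helps the complex bind the X (84.5 and 86.8 against 76.9 to 99.05), overlapped.

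No regulator of sex determination passed the size rule. Of 10 listed genes, 1 lay above and 6 below the other 4 libraries without overlap, against 26.9% and 18.6% of all measured genes, and nothing is read from these counts. Sxl, the master switch of the female pathway, stood at 122 CPM in Control and 74.7 in C4, below the 227, 151, 239 and 180 of C1, C2, C3 and C5. dsx, the last transcription factor of the pathway, stood at 17.4 CPM in Control and 11.7 in C4, against 26.7, 22.7, 27.6 and 25.6. tra2, the splicing partner of tra, went the other way, with 40.3 and 53.9 CPM against 24.2 to 28.2. The 3 genes that overlapped were fru, her and snf.

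Splice forms separated the libraries further, within the limit that transcript counts are estimates shared among isoforms. tra, the splicing factor that directs female development, has a form of 197 residues and a truncated one of 36 residues, and the 2 transcripts were identified by their spliced lengths (687 and 862 bases). The long-protein form stood at 2.33 CPM in Control and 0.157 in C4, against 5.19, 7.02, 6.38 and 7.05 for C1, C2, C3 and C5. Its share of tra counts was 21.7% in Control and 1.18% in C4, against 38.5% to 44.1% in the rest. Control thus stood between C4 and the 4 libraries without testis RNA. The truncated form was found in all 6, at 8.40 CPM in Control, 13.0 in C4 and 7.52 to 11.2 in the rest. One of 6 dsx transcripts, which was not matched to a male or female form, was also lowest in C4, with 1.23 CPM in Control, 0.00 in C4 and 9.09, 7.73, 7.89 and 9.47 in C1, C2, C3 and C5, while the others together stood at 12.1 to 19.4 CPM.

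The regulators that open the spermatocyte programme were among the higher genes. Of 18 measured members of the list of spermatocyte transcription factors, 16 were higher, against 16.2% of all measured genes. The libraries were split by testis RNA, so for testis genes here and below such counts restate the split and are not evidence. Many testis genes also passed the filter of 1 CPM only through Control and C4. The median difference between the sets was 5.89 on the log2 scale, against -0.07 over all measured genes. Such differences are of mean log2 levels, with fewer than 3 counts taken as 3, which understates genes near 0. aly, a tMAC subunit (3L, 3024129 to 3026521), stood at 5.70 CPM in Control and 11.04 in C4, against at most 0.0150 in the others. sa, the testis form of TAF8, stood at 10.7 and 25.4 CPM against no more than 0.0362, and nht, the testis form of TAF4, at 8.52 and 14.7 against no more than 0.0241. All 4 libraries without testis RNA were near or at 0 for these genes. tbrd-1, a bromodomain protein of spermatocytes, stood at 31.7 CPM in Control and 56.6 in C4 and at 0.181, 0.0449, 0.0527 and 0.0533 in C1, C2, C3 and C5. Its relative tbrd-2 (18.2 and 35.7 CPM) and the Plus3-domain gene tplus3b (4.39 and 7.16) had 0 counts in all 4.

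Some members of the list kept more RNA in the 4 libraries. topi, a zinc finger subunit, stood at 14.0 CPM in Control and 28.5 in C4 against 1.65 to 1.96. The paired homeodomain genes achi and vis, which are near-identical neighbours whose reads may have been shared, stood at 21.5 and 37.2 CPM against 7.89 to 10.4, and at 20.4 and 35.5 against 1.82 to 2.80. mip40, which also serves the general dREAM complex, was not called (27.3 and 33.8 CPM against 20.7 to 23.6). Nor was mia, the testis form of TAF6, at 7.46 and 14.0 CPM against 3.04 to 4.42, because its gap stayed under 2-fold.

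Genes of meiosis differed widely in what was left in the 4 libraries. Of 16 measured, 9 were higher (16.2% over all measured genes), with a list median of 1.95. fest, which acts in the translation control of cyclin B before male meiosis, stood at 155 CPM in Control and 277 in C4, against at most 0.197 in the others. The translation initiation factor gene eIF4E3 stood at 48.6 and 90.03 CPM, against 0.386, 0.928, 0.329 and 0.0400. SA2, known as snm, which keeps homologues together in male meiosis, stood at 6.47 and 10.6 CPM with at most 2 counts in each of the 4. bol, the RNA-binding protein that promotes translation of the meiotic phosphatase twe, kept more, with 106 and 213 CPM against 8.24, 13.3, 3.32 and 7.81. The general mitotic genes CycB (112 and 140 CPM against 63.8 to 86.1) and polo (124 and 175 against 79.6 to 97.4) did not overlap but were not called.

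All 17 measured sperm chromatin and Mst genes were higher (16.2% over all measured genes), with a list median of 10.02. Mst57Db and Mst57Dc did not pass the filter and are not counted. For genes measured only through Control and C4 the filter strongly favoured the call. The protamine genes ProtA and ProtB, neighbouring copies on 2L whose reads may have been shared, replace histones in sperm. ProtA stood at 15.8 CPM in Control and 44.5 in C4, and ProtB at 27.6 and 74.2. The 4 other libraries had 0 or 1 count of each. C4 held 2.81 times the ProtA and 2.69 times the ProtB of Control, above the median of the higher genes given below. tHMG1, a chromatin protein of spermatids, stood at 40.6 and 85.9 CPM, against at most 0.0449 elsewhere.

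The Mst84D cluster on 3R, which encodes small cysteine-rich sperm tail proteins, had near-absent RNA in all 4 libraries. Mst84Da stood at 48.9 CPM in Control and 102 in C4, with 1 count or fewer in each of the other 4. Its neighbours Mst84Db, Mst84Dc and Mst84Dd stood at 37.4, 27.9 and 23.5 CPM in Control and at 81.5, 61.9 and 50.7 in C4. These genes resemble each other, and reads may have been shared among them. Mst87F, a further member of that protein family, differed from them in the 4 libraries. It stood at 73.5 CPM in Control and 146 in C4, with 7.52, 1.75, 4.79 and 3.24 in C1, C2, C3 and C5. Mst77F, a linker-histone-like protein of spermatids, stood at 116 and 231 CPM, against 1.57 to 4.62. For both genes C1 held most and C2 least of the 4.

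Sperm tail genes included 20 higher genes of 23 measured (16.2% over all measured genes), with a list median of 6.54. betaTub85D, the tubulin of the sperm axoneme, stood at 244 CPM in Control and 535 in C4, with 0.868, 0.449, 0.922 and 0.667 in C1, C2, C3 and C5. don juan (dj), a sperm tail protein, stood at 52.3 and 119 CPM with at most 1 count in each of the 4, and the neighbouring ocn at 77.6 and 170 with at most 2. 2 genes of the list, chosen after their values were seen, kept more RNA. unc, a basal body gene, stood at 6.34 and 11.4 CPM against 1.23 to 1.99. The outer dynein heavy chain gene Dhc93AB was not called (1.22 and 1.44 CPM against 1.08 to 1.36), nor were janA and nmd. fzo, which fuses mitochondria in spermatids, stood at 37.5 and 90.9 CPM against 0.237 to 0.629.

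The leucyl aminopeptidases of the sperm tail, 7 S-Lap genes and loopin-1, were among the most abundant. All 8 measured members were higher (16.2% over all measured genes), with a list median of 12.74. They summed to 1920 CPM in Control and 3928 in C4, and to 0.542, 0.673, 1.13 and 0.413 CPM in C1, C2, C3 and C5. Levels per length were compared in the RPKM values of the authors (reads per kilobase of transcript and 1000000 reads), summed over a gene's transcripts. Ranked were the 1561 higher genes whose mean in the 4 libraries was at most 5% of that in Control and C4. Among them CG12699 (2R, 17246530 to 17247383) was highest, at 270 RPKM in Control and 597 in C4. S-Lap1 followed with 182 and 418 RPKM, then CG17376 with 184 and 395, CG31226 with 150 and 390, Mst87F with 162 and 348, CG10252 with 156 and 348, loopin-1 with 149 and 335 and S-Lap7 with 148 and 315. In the other 4 libraries each of these 8 stood at no more than 0.565 RPKM except Mst87F, at up to 14.1. CG4836 had the highest CPM of all higher genes (563 and 1142, against 0.184 to 0.360) but fell behind them per length, at 141 and 310 RPKM.

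**Figure D2:**
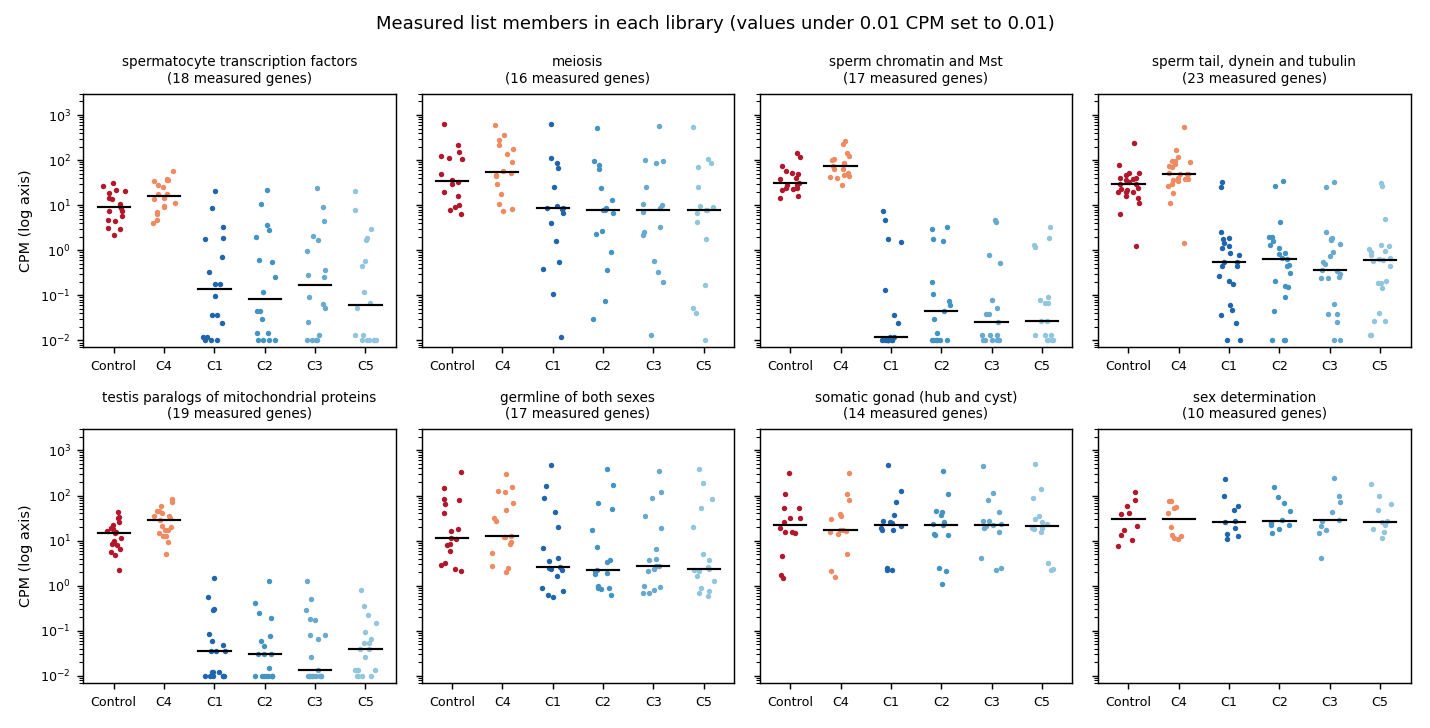
Level of each measured member of 8 gene lists in each library (CPM, log axis; points are genes, bars are medians, values under 0.01 CPM drawn at 0.01). Medians of the spermatocyte, sperm chromatin, sperm tail and mitochondrial lists lie far higher in Control and C4 than in C1, C2, C3 and C5. Those of meiosis and of germline genes of both sexes differ less. The median gene differs by -0.25 (log2) for the somatic gonad and by -0.26 for sex determination. Single genes of the latter differ more, with Sxl and dsx lower and tra2 higher in Control and C4.

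Genes transcribed after meiosis, the cup and comet genes, included 17 higher genes of 19 (16.2% over all measured genes), with a list median of 8.92. w-cup stood at 67.2 CPM in Control and 148 in C4, against at most 0.0362 elsewhere. soti, which restrains caspases during sperm individualisation, stood at 38.5 and 84.4 CPM against no more than 0.0603. Both genes were near 0 in all 4 libraries without testis RNA. f-cup (46.1 and 75.5 CPM against 11.05 to 23.7) and m-cup (71.2 and 117 against 28.2 to 36.4) kept RNA in the 4 libraries, and both stayed just under the 2-fold limit.

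Testis copies of housekeeping proteins were higher almost throughout. All 19 listed copies of mitochondrial proteins were higher (list median 8.11), against 16.2% of all measured genes. So were 12 of 13 copies of proteasome subunits (8.43) and 12 of 15 genes listed as copies of ribosomal and glycolysis proteins (5.93). Cyt-c-d, the testis cytochrome c that takes part in caspase activation in spermatids, stood at 44.1 CPM in Control and 82.9 in C4, with 0.0844, 0.0150, 0.0263 and 0.0933 in C1, C2, C3 and C5. COX6AL2, a copy of a cytochrome c oxidase subunit, stood at 17.95 and 35.4 CPM with 0 counts in all 4. Prosalpha6T, a proteasome core subunit of the testis, stood at 18.6 and 32.4 CPM, also with 0 counts in the 4. Hsp60B, a testis chaperonin, stood at 109 and 193 CPM with at most 4 counts in each of the 4.

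A few of the listed genes had more RNA in the 4 libraries. Rpt6R, a regulatory proteasome subunit, stood at 46.8 and 72.1 CPM against 10.1 to 24.6 and stayed under the limit. RpL24-like (84.0 and 88.0 CPM against 72.9 to 97.9), RpL34a (164 and 154 against 159 to 223) and RpS15Ab (50.9 and 38.6 against 41.9 to 50.9) overlapped between the sets. They were listed as testis copies, but these levels did not mark them as testis genes. RpL22-like, a germline copy of a ribosomal protein, was higher at 20.2 and 28.3 CPM against 0.0800 to 0.229.

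Genes that act in the germline of males and females kept some RNA in the 4 libraries. Of 17 measured, 10 were higher (16.2% over all measured genes), with a list median of 2.13. orb, a regulator of mRNA translation in germ cells, stood at 65.6 CPM in Control and 127 in C4, with 2.66, 1.81, 2.78 and 1.64 in C1, C2, C3 and C5. bgcn, the partner of bam in ending spermatogonial divisions, stood at 16.1 and 27.3 CPM against 0.816 to 0.906. bam itself stood at 2.89 and 2.46 CPM against 0.566 to 0.671. The piRNA pathway genes aub (11.2 and 12.2 CPM against 1.96 to 2.51) and krimp (7.89 and 9.52 against 0.883 to 1.63) were also higher. piwi, which is used in somatic gonad cells too, lay the other way with no overlap, at 2.30 and 2.73 CPM against 3.64 to 4.01.

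Somatic gonad genes and oocyte genes followed the split less. None of 14 measured genes listed for hub and cyst cells was called, and the list median was -0.25. Of the 14, eya, upd1 and chinmo lay higher and tj, so, stg and bnb lower without overlap. Over all measured genes, 26.9% lay higher and 18.6% lower without overlap. Most of the listed genes are also expressed in other larval tissues. chinmo, which maintains male identity of cyst stem cells and is also expressed in neurons, came nearest, at 51.8 and 79.6 CPM against 15.9 to 37.3. Of 17 genes listed for females and oocytes only 6 were measured. exu, named for its role in placing maternal RNA, was higher at 325 and 624 CPM against 11.4 to 16.6. Its transcripts differed. One stood at 275 CPM in Control and 556 in C4 with 0.83 to 1.60 in the other libraries. Another stood at 41.1 and 66.8 CPM against 0.107 to 0.251. All forms of exu but the first, this one included, summed to 54.9 and 89.7 CPM against 10.2 to 15.1. fs(1)N, which makes an eggshell and embryo patterning protein, was higher at 4.56 and 5.21 CPM against 0.173 to 0.374. The yolk protein gene Yp3 stood at 7.46 CPM in Control and 0.973 in C4, below the 14.1, 53.5, 15.01 and 23.4 of the other 4, and was not called.

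C4 held close to 2 times the testis RNA of Control. C4 was above Control for 1860 of the 1875 higher genes, with a median difference of 0.94 on the log2 scale (quartiles 0.78 and 1.07), a 1.91-fold level. Over all measured genes the median difference between C4 and Control was 0.06. The ratio was smaller in genes that kept RNA in the 4 libraries. It had a median of 0.97 in the 699 genes with at most 0.1% left, 0.94 in the 301 genes with 1% to 5% left, 0.82 in the 89 with 10% to 20% and 0.65 in the 128 with 20% to 50%. When the mean of C1, C2, C3 and C5 was first subtracted from both libraries, the medians of these classes were 0.97, 0.96, 0.98 and 0.93. The excess over that mean thus stood at about the same ratio in all classes, with 1.96-fold over all 1875 genes.

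**Figure D3:**
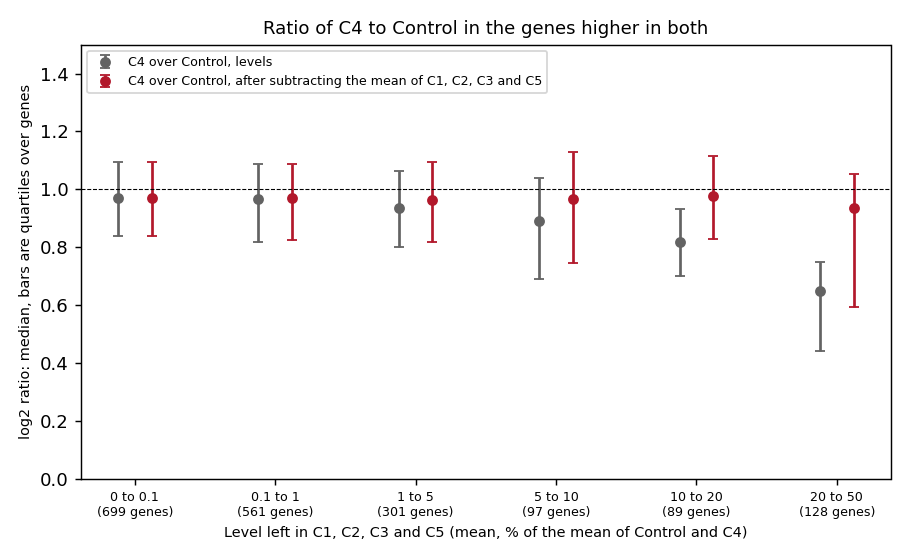
Log2 ratio of C4 to Control in the 1875 higher genes, grouped by the level left in C1, C2, C3 and C5 (points are medians over genes, bars run from the lower to the upper quartile; the dashed line marks a log2 ratio of 1). The ratio of the levels (grey) falls from 0.97 to 0.65 as more RNA is left, whereas the ratio of the excess over the mean of the 4 libraries (red) stays between 0.93 and 0.98.

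The excess ratio was spread over a modest range between lists, with no test of a difference. By list its median was 1.07 for sperm chromatin genes and for the cup and comet genes, 1.06 for sperm tail genes and 1.00 for the S-Laps. It was 0.99 for mitochondrial copies, 0.90 for meiosis, 0.89 for spermatocyte transcription factors and 0.86 for proteasome copies. For the germline genes of both sexes it was 0.56, with a range from -0.30 (bam) to 1.13 (bru1). Genes far from the median were picked after their values were seen. twe, a Cdc25 phosphatase that drives meiotic entry in males, was furthest above among the listed genes, at 15.7 CPM in Control and 57.2 in C4 (excess 2.01 on the log2 scale). Near equal levels were found for vas (10.9 and 12.02 CPM), for del of the piRNA pathway (18.9 and 19.3) and for Tpl94D, a transition protein of spermatids (46.1 and 49.7). The antimicrobial peptide gene DptB also passed the rule, with 6.43 CPM in Control and 41.4 in C4 against 0.303 to 2.52, and had the largest excess ratio of the higher genes named, 2.93.

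Higher genes were found on every chromosome arm, in unequal shares. They made up 19.8% of measured genes on 2L (425 of 2151), 16.2% on 3L, 15.6% on 2R, 15.5% on the X (287 of 1851) and 14.7% on 3R. On the small chromosome 4 they were 2 of 85, or 2.35%. All 3 measured Y genes were higher. The X stood within the range of the autosomal arms, also when only genes with at most 5% left were counted (12.7% on the X, 12.1% to 17.0% on 2L, 2R, 3L and 3R). The X-linked higher genes with the largest gap included TrxT, a thioredoxin of the testis, at 73.2 CPM in Control and 155 in C4 against no more than 0.0667.

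X-linked genes outside the called sets stood slightly lower in Control and C4. Over the 1555 such X-linked genes the median difference between the sets was -0.27 on the log2 scale, against -0.13 for the autosomal genes in neither class, a difference of -0.14 that became -0.087 without C4. Taken by library, with each gene relative to its mean over the 6 libraries, the X minus autosome median was -0.05 in Control and -0.14 in C4. In C1, C2, C3 and C5 it was 0.04, 0.07, 0.04 and 0.05. C4 was lowest and Control next, and the 4 others lay together above 0.

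**Figure D4:**
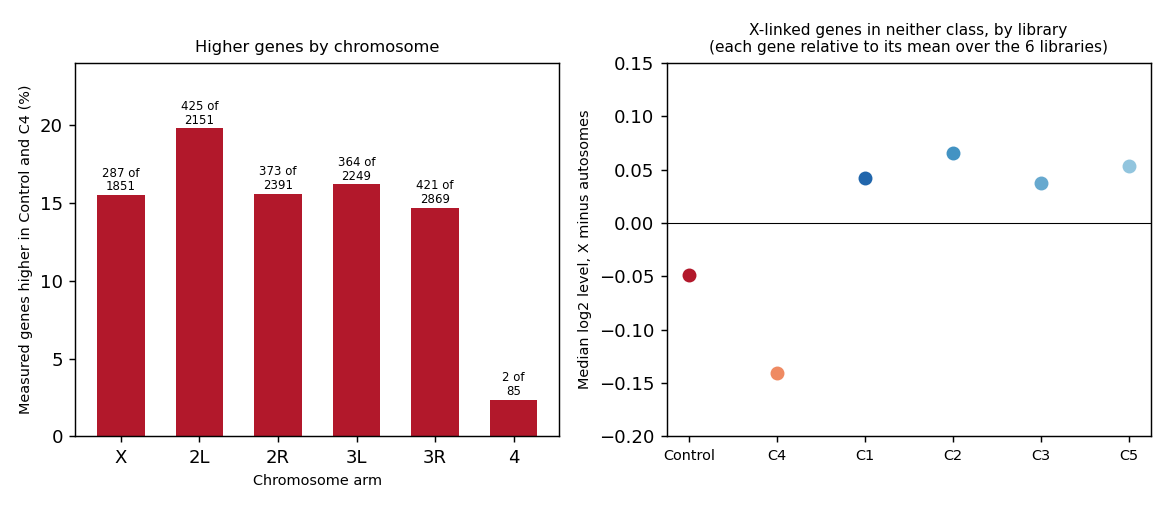
Left, share of measured genes on each chromosome arm that were higher in Control and C4 (%, with counts). Right, median log2 level of X-linked genes minus that of autosomal genes in each library, over genes in neither called class, each gene taken relative to its mean over the 6 libraries. C4 (-0.14) and Control (-0.05) lie below 0 and C1, C2, C3 and C5 (0.04 to 0.07) above it.

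Noncoding RNAs were among the higher genes. Of 151 measured long noncoding RNAs 46 (30.5%) were higher and 3 lower, and of 153 antisense RNAs 27 (17.6%) were higher, against 1802 of 11272 protein-coding genes (16.0%). The strand setting of the counting is not given in the sources used here, so antisense RNAs and their partners cannot be told apart with certainty. On the X, CR32652 stood at 66.6 CPM in Control and 128 in C4, CR32658 at 64.2 and 114, and CR32690 at 47.8 and 90.4, each at no more than 0.105 in the other 4. The autosomal CR42850 stood at 24.4 and 47.5 CPM against no more than 0.0449.

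Of the 1875 higher genes, 980 (52.3%) had another higher gene as a measured neighbour. The same held for 27.6% of all 11599 measured genes and for 22.9% of those not called higher. No test was made of these shares, which describe the called genes. Of the higher genes, 200 lay in 26 runs of at least 6 adjacent measured genes that were all higher. The longest run, on 2R from 23183977 to 23327581 (dm6), held 15 genes, among them RpL22-like, ord, CG3124, Prosbeta5R1 and tbrd-3. They summed to 334 CPM in Control and 667 in C4, against 1.90, 2.45, 1.58 and 0.573 for C1, C2, C3 and C5. On the X a run of 11 genes from 12086469 to 12412181 held CR32652 and CR32658 and summed to 255 CPM in Control, 467 in C4 and 0.195 to 0.303 in the rest. A compact run of 10 genes on 2R, from 8358538 to 8372142, held the comet genes whip, cola, swif and boly (449 CPM in Control, 957 in C4 and 0.0527 to 0.200 elsewhere). Overlapping genes within these runs may share reads.

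Single transcripts showed the split where gene totals did not. Of 23195 measured transcripts 2814 (12.1%) were higher and 117 (0.504%) lower by the same rule, which used this contrast. In 453 genes whose total was measured but not called, 547 transcripts were higher. Pfk, the phosphofructokinase of glycolysis, had a transcript at 50.5 CPM in Control and 90.6 in C4 with at most 0.0148 CPM in the 4 others, while its other transcripts summed to 62.0, 76.9, 207, 52.6, 86.7 and 93.1 CPM in Control and C1 to C5. grsm had one at 53.6 and 104 CPM against at most 0.103, and mge, a subunit of the mitochondrial import machinery, one at 32.0 and 66.6 against at most 0.07. One Syp transcript stood at 31.3 and 61.9 CPM with 0.00 in the 4 others, in a gene whose other transcripts summed to 507 CPM or more in every library. These genes thus had a form seen almost only in Control and C4 beside forms found in all 6.

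The reverse was rarer. In 69 genes with an uncalled total, 80 transcripts were lower. A transcript of mbf1, a transcriptional coactivator, stood at 0.04 CPM in Control and 0.01 in C4, and at 6.01, 10.04, 12.5 and 8.59 in C1, C2, C3 and C5, while the others of mbf1 were present throughout. In 28 genes 1 transcript was higher and another lower. Dred had 1 transcript at 67.6 and 137 CPM against 1.06 to 3.06, and its other at 0.00 in both against 7.16 to 8.75.

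The 32 genes that were lower in Control and C4 differed by far less. The gap was at least 4-fold in 2 of them and at least 3-fold in 5. The number of lower genes was 167 without Control, 90 without C4, 87 without C3, 56 without C5 and 11 with plain CPM. gt, the giant gap gene of the X (2427113 to 2428967), had 2 counts in Control and 3 in C4 but 112, 179, 163 and 85 in C1, C2, C3 and C5, or 1.13 to 2.68 CPM. The long noncoding RNA CR43166 (3R, 24825791 to 24826471) stood at 1.22 CPM in Control and 1.68 in C4 and at 24.7, 15.9, 33.8 and 35.2 in C1, C2, C3 and C5. Its neighbour niki (24822401 to 24825648) was lower too, at 1.05 and 1.13 CPM against 17.7, 13.1, 2.63 and 9.20.

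apolpp, the lipid carrier made by the fat body (chromosome 4), was the most abundant of the lower genes. It stood at 628 CPM in Control and 514 in C4, and at 2124, 3011, 2408 and 3517 in C1, C2, C3 and C5. Lst, the peptide hormone limostatin, stood at 54.6 and 79.1 CPM against 356, 529, 288 and 262. The call rule itself excludes overlap of the 2 sets for these genes. Lower genes of digestion included the serine protease genes Jon99Fii (7.80 and 12.2 CPM against 134, 35.7, 33.1 and 162) and Jon99Ci (3.00 and 4.72 against 38.5, 11.4, 18.7 and 38.3), and the alkaline phosphatase gene Alp8 (2.16 and 2.43 against 74.2, 106, 5.50 and 13.1). SPE, the protease that activates the Toll ligand, stood at 2.78 and 3.89 CPM against 8.12 to 12.1. The spread within the 4 libraries was under 2-fold for 17 of the 32 genes and over 4-fold for 4. Control and C4 lay within 1.5-fold of each other for 24 of them, and C4 was above Control for 16, unlike in the higher genes.

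**Figure D5:**
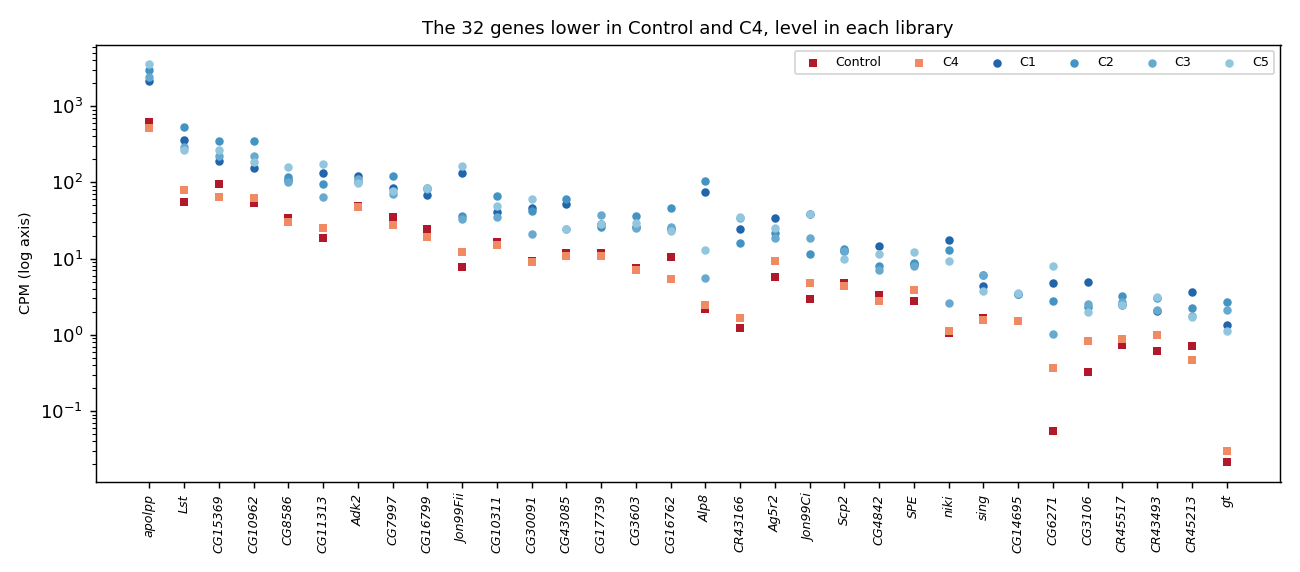
Level of the 32 lower genes in each library (CPM, log axis), sorted by their mean in C1, C2, C3 and C5; squares are Control and C4, circles the other 4. Squares of a gene lie below all circles, as the rule requires, and mostly close together, with apolpp highest and gt lowest.

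Markers of larval tissues were unevenly distributed over the same libraries, and their part in the lower genes was not tested. The 27 measured midgut enzyme genes summed to 2116 CPM in Control and 2053 in C4, below the 6030, 3908, 3036 and 5370 of C1, C2, C3 and C5. Of the 27, 2 were called lower (list median -1.20), against 0.276% of all measured genes. Without overlap 8 lay lower (18.6% over all measured genes), and the other 19 overlapped. The 7 serum and storage genes of the fat body summed to 94169 and 52328 CPM, below the 96875 to 150411 of the others, with apolpp as the one call. Lsp1alpha, Fbp1, Fbp2 and apolpp lay lower without overlap, and the other 3 overlapped. Sums overlapped, with no call, for the 18 haemocyte genes (548 to 692 CPM in Control and C4, 614 to 1273 in the rest) and 26 muscle genes (10809 to 11519 and 5824 to 35974). The same held for 14 nervous system genes (424 to 441 and 425 to 551) and 10 glue genes (19015 to 19522 and 802 to 46895). Within these lists PPO3, lz, Syt1, para and repo lay lower and nrv2 higher without overlap, as did 18.6% and 26.9% of all measured genes. The 12 disc and mitosis genes summed to 403 CPM in Control and 375 in C4 against 405 to 461. Among them stg, Mcm5, dap, dpp and vg lay lower and CycE higher without overlap, and the other 6 overlapped. No measured marker of the midgut, fat body, haemocyte, muscle, nerve or disc lists was at 0 counts in any library. Of the 9 measured Eig71E genes, induced late in the salivary gland, none was called and all overlapped. They summed to 5476 CPM in Control and 3075 in C4, against 2318, 2792, 788 and 4005 for C1, C2, C3 and C5, and Eig71Ee made up most of the sum except in C3. Eig71Ea stood at 1.64 CPM in Control but at 391 in C4 and 336 in C3.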

How the data were processed

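Total RNA of whole larvae was sequenced as stranded libraries after ribosomal RNA removal, per the labels' protocols. Per the submitters' processing notes, the tools were TopHat, bcl2fastq and Partek, on build dm6. Their versions and roles, and whether counting used strand, are not stated in those notes. For each library the authors deposited expected counts, that is estimated reads shared among the isoforms of 34966 RefSeq transcripts. The authors also deposited RPKM values, used here only for levels per length. Of the transcripts, 33027 matched a gene of the Release 6 plus ISO1 MT annotation, the assembly of dm6, and the 1939 unmatched ones held 0.0796% to 0.136% of a library's counts. Counts were summed over 16196 genes (13695 protein coding), rounded, and scaled to CPM with TMM factors of 0.890 (C2) to 1.19 (C4) from edgeR 4.0.16 in R 4.3.3. The calls were tested on simulated data. With 1 library per genotype, and a split read from these values, no test of a difference was run.

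The split, its members and the 22 gene lists, written from general knowledge, were chosen with earlier results of these data known. Of 364 list entries 355 matched a gene. Named were the 15 higher and the 15 lower genes with the largest gap at a mean CPM of at least 5, the 8 higher genes with the highest level, up to 6 members of each list with the largest gap, roX1, roX2, Sxl, tra, dsx, msl-2, and the 5 X-linked and the 5 long noncoding genes with the largest gap in each direction. Other named genes, transcripts and runs were picked after their values were seen. Alternatives were other size factors, plain CPM, other filters, folds and floors, transcripts for genes, and leaving out each library.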

Additional observations from a re-analysis of the deposited data

How the results depend on the processing

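With no replicate of any genotype, leaving out a library was the nearest check on the counts. The 1875 higher genes became 1032 with a mean CPM of at least 5 and 2814 as transcripts, and all other settings stayed within 1.5 times. Without C4 1567 were higher, 1515 of them among the 1875, and without Control 2044, 1785 of them shared. The 32 lower genes were less firm. There were 11 with plain CPM, 2 at 4-fold and 117 as transcripts. Leaving out a library gave between 37 (without C1) and 167 (without Control), with 90 without C4, 87 without C3 and 56 without C5. The median of C4 over Control of 0.94 (log2) became 1.05 with plain CPM, and 0.84 to 0.93 when one of the 4 libraries was left out. Leaving out a library also refitted the scaling factors and changed the genes called. Without C2, the factor of Control went from 1.09 to 1.04 and that of C4 from 1.19 to 1.21. The X minus autosome difference of -0.14 ranged from -0.17 (without Control) to -0.087 (without C4). Plain CPM moved the median difference between the sets over all genes from -0.07 to 0.22, and differences near that size depend on the scaling. Depth limits genes near the floor of 3 counts, 0.0304 to 0.0449 CPM.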
